A study of Mus musculus with 12 samples.

Results

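The genes described here are 40 mouse genes known to be switched on by interferons and given as a list of symbols, which was drawn up with earlier results of these data known. They were read in RNA-seq libraries of CD4+ T cells that had been cultured as Th17, iTreg or Th0 cells. Each treated group had its own deposited table with its Th0 libraries, and the tables listed 34 of the 40 genes among 11247 genes in all. The list was divided by role into 3 transcription factors, 4 nucleic acid sensors, 18 antiviral effectors, 7 guanylate-binding proteins (GBPs), 7 immunity-related GTPases (IRGs) and the peptide transporter subunit Tap1.

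Every culture began from naïve CD4+CD62L+ T cells of C57BL/6 mouse spleens, from animals 8 to 10 weeks old, and all 3 groups were activated for 3 days with plate-bound anti-CD3 and anti-CD28 at 1 µg/ml each. Th0 cells received, per the labels, nothing beyond this activation. Th17 cells also received IL6 at 30 ng/ml, TGFβ1 at 5 ng/ml, and the neutralizing antibodies anti-IL4 and anti-IFNγ at 10 µg/ml each. iTreg cells received, per the labels, IL2 at 10 ng/ml and TGFβ1 at 10 ng/ml, and for TGFβ1 the methods of the study state another concentration. The anti-IFNγ antibody was thus added together with the Th17 cytokines and to no other group, so that the effects of the antibody and of the cytokines cannot be told apart here. There were 4 libraries in each group and 12 in all, and the labels name a library of each group in each of 4 experiments. Both comparisons used the same 4 Th0 libraries.

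Interferons signal through receptors that activate the kinases Jak1, Jak2 and Tyk2 and, through them, STAT transcription factors. Type I interferons lead to a complex of STAT proteins with Irf9 that binds the interferon-stimulated response element (ISRE), whereas IFNγ leads to STAT pairs that bind the gamma-activated site (GAS). The genes that follow encode sensors of foreign nucleic acids, proteins that block the growth of viruses, and, after IFNγ above all, GBPs and IRGs, families of large GTPases that attack the vacuoles of bacteria and parasites inside the cell. In CD4+ T cells IFNγ is also the signature cytokine of the Th1 lineage.

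Values are FPKM, read fragments scaled by the authors for transcript length and library size, and libraries are named by the column headings of the tables. Each heading starts with M22, M29, M42 or M43, which occur once per group, and the 4 values of a group are given in this order throughout. The headings name no experiment number, and libraries that share a beginning deviated together from their group means. The main test compared the groups without this pairing, using limma on log2(FPKM + 1) over all genes that exceeded 1 FPKM in 4 or more of the 8 libraries. Fold changes are on that scale, which understates the change of low genes. A gene was called differentially expressed (DE) at an adjusted p under 0.05. Where a replicate block on the heading beginnings changed a call of a gene of the interferon list or its pathway, its adjusted p is given as the paired value. Fits that left out a library ignored the pairing as well. Every interferon gene called by the main test was also DE with the pairing. When all 4 libraries of one group lay above all 4 of the other, the two-sided exact permutation p was 0.029, the smallest that 4 against 4 can give.

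The genes that define the cultures stood where the labels put them, with one library apart. Il17f was at 281 to 788 FPKM in Th17 libraries and under 1 FPKM in Th0, and Foxp3 was at 2.01 to 7.15 FPKM in Th0 and 62 to 91.7 FPKM in iTreg. The Th17 library M43_5 also held Foxp3 at 42.5 FPKM, against 0.499 to 4.5 FPKM in the other Th17 libraries. Of the T cell markers 4 of 5 were listed, and their summed level was 668 to 1463 FPKM in Th0, 443 to 836 FPKM in Th17 and 559 to 827 FPKM in iTreg libraries. NK cell markers were listed for 0 of 4 genes, B cell markers for 1 of 5 (Cd79a, at most 3.84 FPKM) and CD8 T cell markers for 1 of 2 (Cd8b1, at 2.19 to 6.6 FPKM over all groups). Of 6 macrophage markers Itgam and Cd68 were listed in the Th17 table and Cd68 in the iTreg table. The macrophage sum was 3.34 to 5.03 FPKM in Th0 and 5.58 to 16.5 FPKM in Th17 libraries, and 3.19 to 4.85 FPKM in Th0 and 2.61 to 7.19 FPKM in iTreg libraries. Of 5 dendritic cell markers Xcr1 was listed in the Th17 table, at 0 to 0.24 FPKM in Th0 and 0.163 to 0.64 FPKM in Th17 libraries, and 0 in the iTreg table. Of the 4 listed T cell markers the main test called 1 lower in Th17 (Cd4, -1.54, adjusted p = 0.038) and 0 in iTreg cells. Of all genes 8.69% and 8.21% fell. With the pairing 3 of the 4 were lower in each comparison, beside 18.6% and 20% of all genes. Cd68 was higher in Th17 cells without overlap, and DE with the pairing only (0.88, adjusted p = 0.055, paired 0.019). The part of other cell types in the results below was not tested. Relative depth, read from the steps of the FPKM values, lay between 0.825 and 1.19 of the median of a table.

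In Th17 cells compared to Th0 cells, 6 of the 32 tested interferon genes were up-regulated and 10 were down-regulated. The RNA sensor gene Ifih1 and 4 of 7 GBP genes had, together with Isg20, the lowest fold changes among the called genes, and the up-regulated genes were Irf7, Irf9, Bst2, Parp9, Samhd1 and the IRG gene Ifi47. Thus 16 of 32 were DE, where 19.3% of all 10269 genes tested were (10.6% up and 8.69% down). With the paired value 21 of 32 were DE (9 up and 12 down), beside 37.8% of all genes (19.2% up and 18.6% down). Groups did not overlap for 14 of the 32 (4 higher and 10 lower), beside 23.8% of all genes (13.2% higher and 10.6% lower). The median log2 fold change of the 32 was -0.06, against -0.00071 for all genes tested. Of the 40 genes, 7 were not listed in the Th17 table (Ifit3, Oas1a, Oasl2, Mx1, Rsad2, Ifi44 and Rtp4) and Xaf1 was listed but too low to test. The genes Ifih1, Isg20 and Ifit1 passed the low-value filter through the Th0 libraries alone, and Irf7 passed it with 1 Th0 library and 4 Th17 libraries, so their place among the 32 depends on the group in which they were higher.

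In iTreg cells compared to Th0 cells, 3 of 30 tested genes were up-regulated and 6 were down-regulated. The IRG genes Ifi47 and Irgm1 rose, Ifih1 and the GBP genes Gbp5, Gbp7 and Gbp9 fell, and Ifi35 rose while Ifit2 and Zbp1 fell. These 9 of 30 stand beside 16.6% of all 10208 genes tested (8.36% up and 8.21% down). The paired value gave 15 of 30 (6 up and 9 down), beside 40.9% of all genes (20.9% up and 20% down). Groups did not overlap for 11 of the 30 (6 higher and 5 lower), beside 22.8% of all genes (11.7% higher and 11% lower). The median log2 fold change was 0.09 for the 30 and 0.01 for all genes tested. The 6 genes Oas1a, Oasl2, Mx1, Rsad2, Ifi44 and Rtp4 were not listed, and Irf7, Ifit3, Usp18 and Xaf1 were listed but too low to test. In bulk RNA, fewer cells that express a gene and less of its RNA per cell cannot be told apart.

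**Figure D1:**
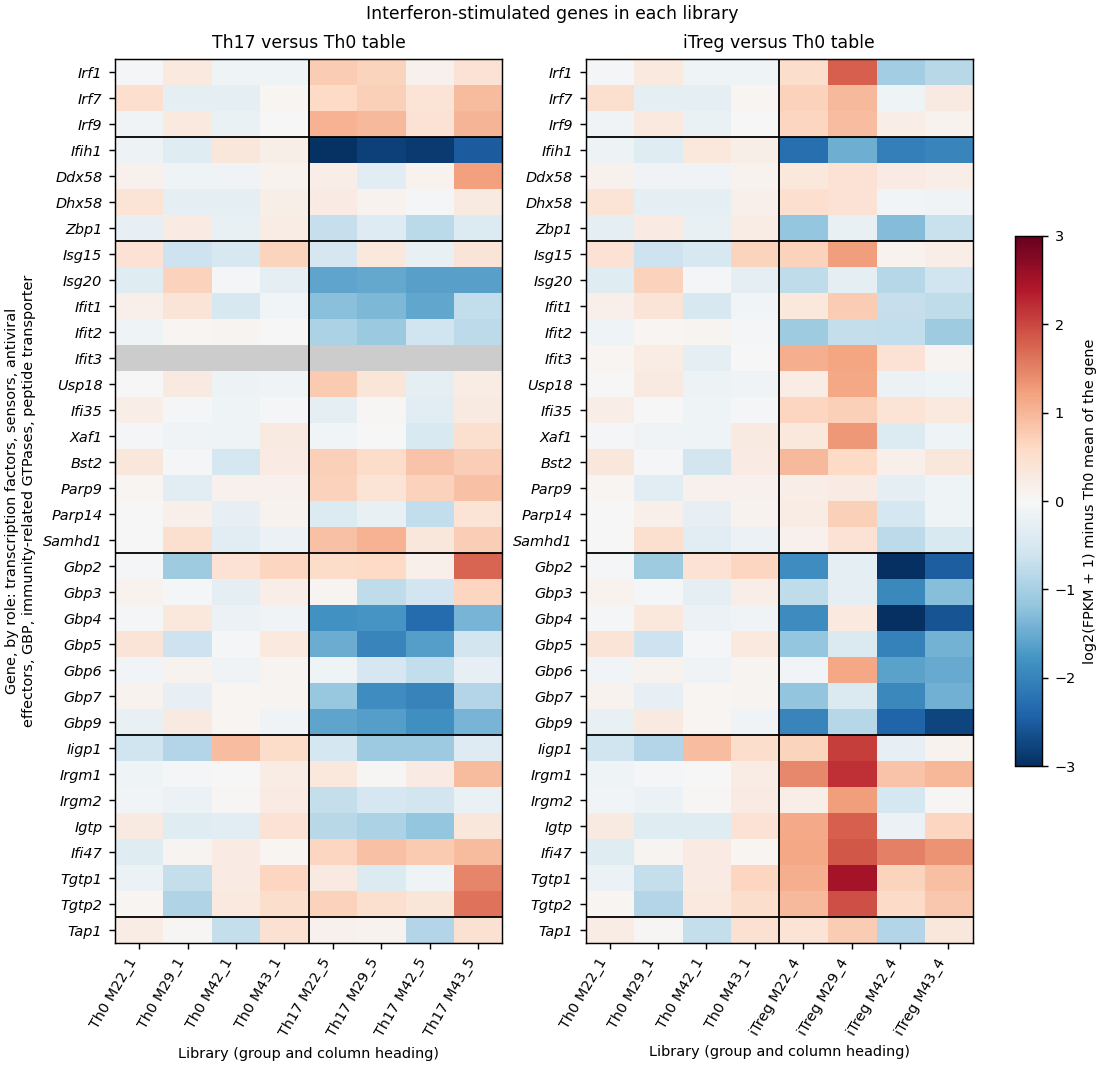
Each row is an interferon-stimulated gene and each column a library of the Th17 table (left) or the iTreg table (right). Colour gives log2(FPKM + 1) minus the mean of the gene in the 4 Th0 libraries of that table, with values past the ends of the scale drawn in the end colour and a gene that the table does not list in grey. Ifih1 and most GBP rows are blue in both treated groups, whereas all 7 IRG rows lie above the Th0 mean in the iTreg libraries M22_4, M29_4 and M43_4 and 4 of 7 in M42_4.

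Libraries of one group differed in the GTPases. The iTreg library M29_4 had the highest value of the 4 iTreg libraries for 14 of 14 GTPase genes and for 13 of the 15 tested genes of the other antiviral roles, and M42_4 had the lowest value for 12 of the 14 GTPases. Among Th17 libraries M43_5, the library with the high Foxp3, was highest for 13 of 14 GTPases. The library M29_1, the Th0 library that shares its heading beginning with M29_4, was lowest in its group for 8 of the 14. How often M29_4, M42_4, M43_5 and M29_1 were highest or lowest over all genes was not counted. Without M29_4 the iTreg comparison gave 11 DE interferon genes (2 up and 9 down), and without M43_5 the Th17 comparison gave 13 (3 up and 10 down). The same fits called 1433 of all 10208 genes without M29_4 and 1660 of all 10269 without M43_5.

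Of the 3 transcription factors, Irf7 and Irf9 rose in Th17 cells. Irf9, the DNA-binding part of the complex formed after type I interferon, was at 11.4, 15.5, 10.7 and 12.5 FPKM in Th0 and 26.9, 25.4, 17.2 and 26.3 FPKM in Th17 libraries. All Th17 libraries lay above all Th0 libraries (log2 fold change 0.87 ± 0.17 (SE), adjusted p = 0.0075). Irf7, which drives type I interferon genes, was low, with 1.29, 0.343, 0.349 and 0.691 FPKM in Th0 and 1.45, 1.68, 1.17 and 2.15 FPKM in Th17 libraries. The Th0 library M22_1 lay among the Th17 values, and the higher level in Th17 (log2 fold change 0.67 ± 0.19 (SE), adjusted p = 0.043) rested on 5 to 18 reads per Th0 library and 19 to 36 reads per Th17 library. The call was lost when any one of 6 libraries was left out and kept only without M22_1 or without M42_5, with adjusted p from 0.014 to 0.11. Irf1, a factor induced by IFNγ and the highest of the 3, was at 16.3, 21.1, 15.5 and 15.4 FPKM in Th0 and 29.4, 27.7, 18.6 and 23.1 FPKM in Th17 libraries. It was higher in Th17 within each of the 4 heading beginnings, and was DE in the paired test (adjusted p = 0.013) but not in the main one (log2 fold change 0.50 ± 0.16 (SE), adjusted p = 0.067). Leaving out M29_1 or M42_5 brought the main value to 0.60 (adjusted p = 0.038) and 0.62 (adjusted p = 0.021).

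In iTreg cells the same factors did not pass the main test. Irf1 ranged widely, at 24.6, 60.5, 7.66 and 9.01 FPKM in the iTreg libraries against 15.2 to 20.9 FPKM in Th0. M22_4 and M29_4 were above every Th0 library and M42_4 and M43_4 were below every one, so that the log2 fold change was 0.12 ± 0.56 (SE), adjusted p = 0.92, and -0.44 without M29_4. Irf9 was at 11.3, 15.4, 10.6 and 12.3 FPKM in Th0 and 19.7, 24.2, 14.3 and 13.3 FPKM in iTreg libraries. The groups overlapped, and Irf9 was DE only with the paired value (adjusted p = 0.017, main log2 fold change 0.47 ± 0.20 (SE), adjusted p = 0.15). Irf7, not tested here, was listed at 0.34 to 1.28 FPKM in Th0 and 0.477 to 2.18 FPKM in iTreg libraries.

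Ifih1 was the gene with the largest difference of the list in Th17 cells. It encodes MDA5, the cytosolic sensor of long double-stranded RNA, and lies on the minus strand of chromosome 2 (chr2:62595798-62646255, GRCm38). Ifih1 stood at 7.45, 6.3, 10.8 and 9.68 FPKM in Th0 and at 0.20, 0.357, 0.289 and 0.664 FPKM in Th17 libraries. The mean was 8.56 ± 2.05 FPKM (SD, n = 4) in Th0 and 0.378 ± 0.202 FPKM (SD, n = 4) in Th17, a ratio of 22.7 (log2 fold change -2.78 ± 0.17 (SE), adjusted p = 2.0e-05). The smallest whole numbers of reads that give these values were 273 to 551 per Th0 library and 9 to 33 per Th17 library. In iTreg cells it stood at 0.929, 2.38, 1.23 and 1.36 FPKM, below all Th0 libraries but above all Th17 values, which come from the other table. The iTreg mean was 1.47 ± 0.632 FPKM (SD, n = 4) (log2 fold change -1.94 ± 0.21 (SE), adjusted p = 0.00044). The call held with each library left out, in both comparisons.

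Of the other sensors, Zbp1 fell in both comparisons and Ddx58 and Dhx58 were not called. Zbp1, a sensor of Z-form nucleic acids that can start cell death, was the highest sensor and stood at 11.2, 16.3, 11.6 and 16.2 FPKM in Th0 and 7.99, 10.1, 7.33 and 9.97 FPKM in Th17 libraries. All Th17 values were below all Th0 values (log2 fold change -0.58 ± 0.16 (SE), adjusted p = 0.038). In iTreg libraries Zbp1 was at 5.47, 11.4, 4.87 and 8.11 FPKM, and M29_4 lay within the Th0 range of 11.1 to 16.1 FPKM (log2 fold change -0.84 ± 0.25 (SE), adjusted p = 0.049). Both calls were near the threshold. In the Th17 comparison the call was kept only without M22_1 or without M42_1 (adjusted p 0.039 to 0.11 over the 8 fits), and in the iTreg comparison only without M29_4 (0.013 to 0.13), whereas the paired adjusted p was 0.0022 and 0.0013. Ddx58, which encodes the RNA sensor RIG-I, was at 1.81, 1.38, 1.38 and 1.78 FPKM in Th0 and 2.19, 2.5, 2.04 and 1.94 FPKM in iTreg libraries. These groups did not overlap, and Ddx58 was DE with the paired value only (adjusted p = 0.043, main log2 fold change 0.29 ± 0.10 (SE), adjusted p = 0.091). In Th17 cells its value was 0.30 (adjusted p = 0.51), with M43_5 at 5.06 FPKM and the other Th17 libraries at 1.09 to 1.98 FPKM, and without M43_5 it was -0.0016. Dhx58, the related LGP2, was at 0.686 to 1.77 FPKM in Th0 and 0.993 to 1.52 FPKM in Th17 libraries and was not DE in either comparison (adjusted p = 0.62 and 0.61).

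Of the 18 antiviral effectors 3 rose and 3 fell in Th17 cells among 10 tested, and 1 rose and 1 fell in iTreg cells among 9 tested. These were 60% and 22.2% of those tested, beside 19.3% and 16.6% of all genes. The iTreg share was thus close to that of all genes. Ifit2, a tetratricopeptide-repeat protein that restricts viral translation, fell in both. Its values were 7.94, 9.09, 9.33 and 8.57 FPKM in Th0, 4.03, 3.5, 5.46 and 4.64 FPKM in Th17 and, in the other table, 3.62, 4.84, 4.78 and 3.62 FPKM in iTreg libraries. No treated library reached a Th0 library, with log2 fold changes of -0.86 ± 0.13 (SE), adjusted p = 0.0019 in Th17 and -0.89 ± 0.12 (SE), adjusted p = 0.0012 in iTreg. Ifit1, its relative that binds the ends of viral RNA, was at 2.28, 2.85, 1.11 and 1.79 FPKM in Th0 and 0.232, 0.157, 0 and 0.758 FPKM in Th17 libraries. The Th17 values lay below the Th0 values (log2 fold change -1.22 ± 0.22 (SE), adjusted p = 0.0056) and rested on 0 to 18 reads per Th17 library and 27 to 59 per Th0 library. In iTreg cells Ifit1 was at 2.64, 3.91, 0.799 and 0.72 FPKM, with M22_4 above 3 Th0 libraries, M29_4 above all 4, and the remaining 2 below all 4, and was not DE (log2 fold change -0.09 ± 0.36 (SE), adjusted p = 0.9). Ifit3, listed in the iTreg table alone and not tested, was at 0.462, 0.632, 0.16 and 0.424 FPKM in Th0 and 2.02, 2.18, 0.888 and 0.503 FPKM in iTreg libraries. It shared 31.7% of its 100-base stretches with Ifit3b, so that its reads may have been split or dropped.

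Isg20, an exonuclease that degrades RNA, was at 2.46, 6.14, 3.23 and 2.65 FPKM in Th0 and 0.467, 0.527, 0.434 and 0.423 FPKM in Th17 libraries. The groups were far apart (log2 fold change -1.60 ± 0.21 (SE), adjusted p = 0.0011), with 29 to 76 reads per Th0 library and 6 to 8 per Th17 library. In iTreg libraries the values were 1.57, 2.57, 1.41 and 1.92 FPKM, where M29_4 overlapped Th0, and the fall passed only the paired test (adjusted p = 0.0075, main log2 fold change -0.63 ± 0.24 (SE), adjusted p = 0.11). Isg15, the ubiquitin-like protein that is often read as a sign of interferon, was low everywhere, at 0.674 to 3.12 FPKM in Th0 and 0.81 to 2.35 FPKM in Th17 and up to 5.09 FPKM in iTreg libraries. Its 4 to 38 reads per library do not allow a small difference to be seen, and neither comparison called it (adjusted p = 0.98 and 0.34).

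The effectors that rose in Th17 cells were Samhd1, Bst2 and Parp9. Samhd1, which breaks down the nucleotides that viruses need and was the highest effector, stood at 85.5, 118, 67.5 and 75.1 FPKM in Th0 and 157, 175, 107 and 142 FPKM in Th17 libraries. The Th0 library M29_1 overlapped M42_5, but each Th17 library exceeded the Th0 library with the same heading beginning (log2 fold change 0.75 ± 0.21 (SE), adjusted p = 0.034, paired adjusted p = 0.0014). In iTreg libraries Samhd1 was at 91.7, 113, 48.2 and 60.7 FPKM and was not DE (adjusted p = 0.74). Bst2, or tetherin, which holds budding virus to the cell surface, was at 46.4, 34.7, 24.7 and 43.6 FPKM in Th0 and 59.8, 53.9, 67 and 60.9 FPKM in Th17 libraries. These groups did not overlap (log2 fold change 0.71 ± 0.19 (SE), adjusted p = 0.031). In iTreg libraries it was at 71.3, 54.8, 39.8 and 45.9 FPKM, with overlap, and was DE only with the paired value (adjusted p = 0.012, main 0.51, adjusted p = 0.18). Parp9, a member of the ADP-ribosyltransferase family, was at 9.44, 7.0, 9.98 and 9.95 FPKM in Th0 and 15.2, 12.2, 15.3 and 17.3 FPKM in Th17 libraries, without overlap (log2 fold change 0.67 ± 0.14 (SE), adjusted p = 0.013). It was not DE in iTreg cells, at 0.01 (adjusted p = 0.97).

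The Samhd1 and Bst2 calls in Th17 cells were near the threshold. Samhd1 was called without M29_1 or without M42_5 and in no other of the 8 fits that left out a library (adjusted p 0.012 to 0.094). Bst2 was called without any one of M22_1, M42_1 and M43_1 and in no other (0.027 to 0.073), and its paired adjusted p with all libraries was 0.020. Parp9 was called in all 8, as were Irf9, Ifit1, Ifit2 and Isg20. Reads were counted without strand, and parts of the exons of some called genes overlap another gene, namely 9.40% for Parp9 (Dtx3l), 16.8% for Ifi35 (Gm11626), 11.3% for Gbp7 (Gm43802) and 8.77% for Ifi47 (Gm12188 and Olfr56).

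Ifi35, an interferon-induced leucine zipper protein, was DE in iTreg cells alone. It was at 29.5, 25.2, 23.2 and 24.7 FPKM in Th0 and 40.8, 42.3, 34.5 and 31.6 FPKM in iTreg libraries. The groups did not overlap (log2 fold change 0.52 ± 0.12 (SE), adjusted p = 0.022), and the call was lost without M22_4, M29_4, M42_1 or M43_1 (adjusted p 0.055 to 0.068). In Th17 cells its log2 fold change was -0.08 (adjusted p = 0.77), and the difference between Th17 and iTreg cells was not tested. Usp18, a protease that removes Isg15 from proteins and damps type I signalling, reached 2.28 FPKM in Th17 libraries and was not DE there (adjusted p = 0.42). Parp14 was not DE in either comparison (adjusted p = 0.51 and 0.89). Xaf1, which binds an inhibitor of cell death, was listed at 0.439 to 1.75 FPKM in Th17 and 0.47 to 3.78 FPKM in iTreg libraries, the highest of these being M29_4.

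**Figure D2:**
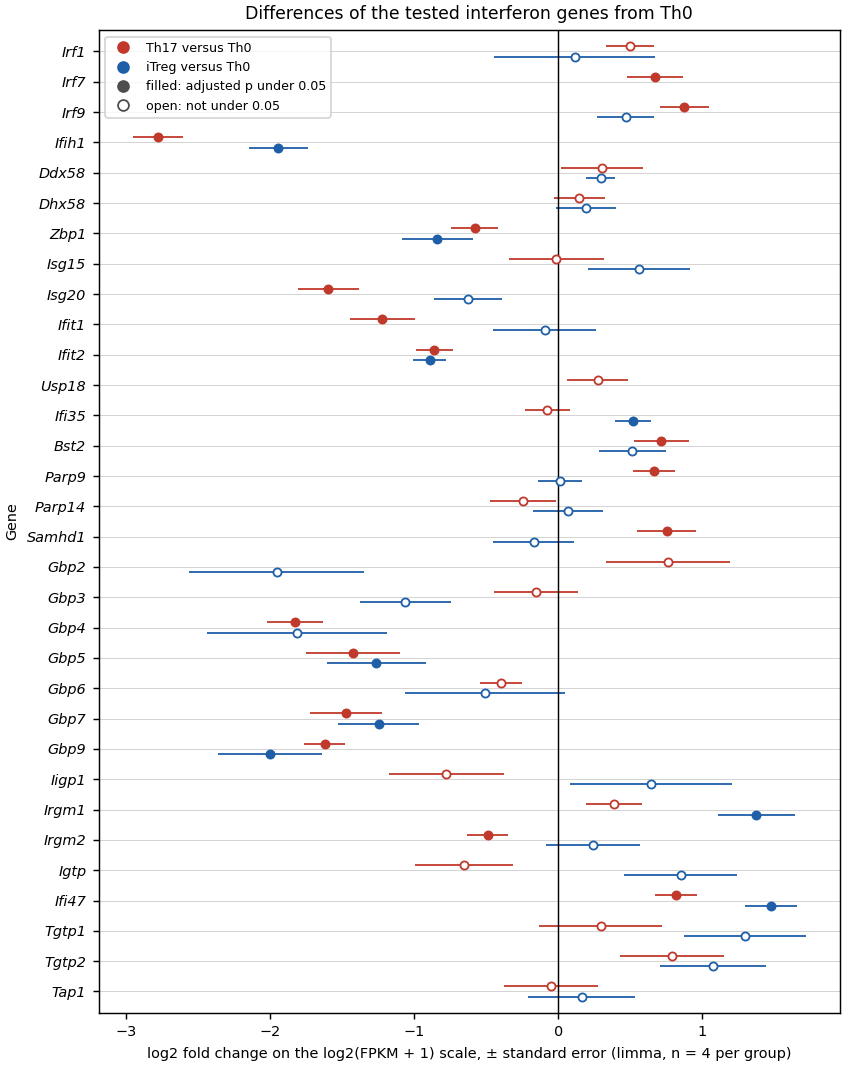
Log2 fold changes on the log2(FPKM + 1) scale of every tested interferon gene in Th17 (red) and iTreg cells (blue), each against the same Th0 libraries, with the standard error from limma (n = 4 per group). Filled points have an adjusted p under 0.05, and the GBP genes lie left of 0 in both comparisons apart from Gbp2 in Th17 cells, while Irgm1, Ifi47, Tgtp1 and Tgtp2 lie right of 0.

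The GBP genes that were called were lower in Th17 and in iTreg cells. In Th17 cells 4 of 7 fell and 0 rose, and in iTreg cells 3 of 7 fell and 0 rose, while the paired values gave 5 of 7 lower in each. Of all genes tested, 8.69% fell in Th17 and 8.21% in iTreg cells, and 18.6% and 20% with the paired value. The median log2 fold change of the 7 genes was -1.42 in Th17 and -1.26 in iTreg cells. Gbp2, Gbp3, Gbp5 and Gbp7 lie together on chromosome 3 (from chr3:142493978-142522344 to chr3:142620602-142638008, plus strand, GRCm38), and Gbp4, Gbp6 and Gbp9 on chromosome 5 (Gbp9 at chr5:105077630-105139539, minus strand). Their proteins assemble on the membranes of pathogens and their vacuoles.

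Gbp4 was at 19.4, 25, 17.7 and 18.7 FPKM in Th0 and 4.94, 5.15, 3.24 and 7.0 FPKM in Th17 libraries. The groups were well apart (log2 fold change -1.83 ± 0.20 (SE), adjusted p = 0.00031). Gbp9 was at 11, 15.8, 13.7 and 12 FPKM in Th0 and 3.64, 3.43, 2.92 and 4.31 FPKM in Th17 libraries, again without overlap (log2 fold change -1.62 ± 0.14 (SE), adjusted p = 0.00011). Gbp7 was at 4.63, 3.4, 4.42 and 4.5 FPKM in Th0 and 1.35, 0.425, 0.304 and 1.84 FPKM in Th17 libraries, also without overlap (log2 fold change -1.47 ± 0.25 (SE), adjusted p = 0.0037). For Gbp5, which promotes assembly of the NLRP3 inflammasome, the values were 32.7, 15.6, 23.7 and 30.3 FPKM in Th0 and 8.11, 5.53, 7.1 and 16.4 FPKM in Th17 libraries. M29_1 of Th0 lay below M43_5 of Th17, and all other Th17 libraries were below all Th0 libraries (log2 fold change -1.42 ± 0.33 (SE), adjusted p = 0.016). Calls of these 4 genes held with each library left out.

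Gbp2 was the exception in Th17 cells. It was the GBP gene with the highest level, at 40.3, 19.1, 56.1 and 64.7 FPKM in Th0 and 60.1, 62.7, 45.4 and 141 FPKM in Th17 libraries. The values overlapped and were not DE (log2 fold change 0.76 ± 0.43 (SE), adjusted p = 0.27, paired adjusted p = 0.082), and the highest was M43_5. Gbp6 was at 5.13, 6.02, 5.06 and 5.91 FPKM in Th0 and 5.0, 3.61, 2.93 and 4.53 FPKM in Th17 libraries. Its groups did not overlap, and the fall passed only the paired test (adjusted p = 0.04, main log2 fold change -0.40 ± 0.15 (SE), adjusted p = 0.096). Gbp6 shared 64.5% of its 100-base stretches with other genes and 28.99% of its exonic bases overlapped Gm43302, so its reads are uncertain. Gbp3 was not DE in Th17 cells (-0.15, adjusted p = 0.75).

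In iTreg cells Gbp9 was at 10.8, 15.7, 13.5 and 11.9 FPKM in Th0 and 2.52, 6.6, 1.62 and 1.05 FPKM in iTreg libraries. The groups did not overlap (log2 fold change -2.0 ± 0.36 (SE), adjusted p = 0.0064), and the call held with each library left out. Gbp7 was at 1.27, 2.84, 0.355 and 0.894 FPKM in iTreg libraries, all below Th0 at 3.37 to 4.58 FPKM (log2 fold change -1.25 ± 0.28 (SE), adjusted p = 0.017, and adjusted p = 0.051 without M22_1). Gbp5 was at 10.3, 17.8, 5.18 and 8.54 FPKM in iTreg against 32.3, 15.5, 23.4 and 29.98 FPKM in Th0 libraries. M29_4 lay above M29_1 and every other iTreg library below all Th0 libraries (log2 fold change -1.26 ± 0.34 (SE), adjusted p = 0.037). This call was kept only without M29_1 or without M29_4 (adjusted p 0.012 to 0.099 over the 8 fits).

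The differences of Gbp2, Gbp3 and Gbp4 in iTreg cells were not called with all libraries and were called without M29_4. Gbp2 was at 39.8, 18.9, 55.4 and 64 FPKM in Th0 and 10.4, 33.1, 3.52 and 6.46 FPKM in iTreg libraries. Only M29_4 overlapped Th0, the log2 fold change was -1.95 ± 0.61 (SE), adjusted p = 0.061, and without M29_4 it was -2.51 (adjusted p = 0.010) and without M29_1 -2.31 (adjusted p = 0.043). Gbp4 was at 19.2, 24.8, 17.5 and 18.5 FPKM in Th0 and 4.58, 24.4, 1.49 and 2.46 FPKM in iTreg libraries. M29_4 was at the level of Th0 and the others far below it (log2 fold change -1.81 ± 0.63 (SE), adjusted p = 0.086, paired adjusted p = 0.016, and -2.52 with adjusted p = 0.00086 without M29_4). Gbp3 was at 4.97, 4.37, 3.56 and 5.38 FPKM in Th0 and 2.28, 3.54, 0.448 and 1.28 FPKM in iTreg libraries. The groups were apart by a narrow margin (log2 fold change -1.06 ± 0.32 (SE), adjusted p = 0.052, paired adjusted p = 0.01, and -1.32 with adjusted p = 0.015 without M29_4). Gbp6 ranged from 1.11 to 13.5 FPKM in iTreg libraries and was not DE (adjusted p = 0.6).

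**Figure D3:**
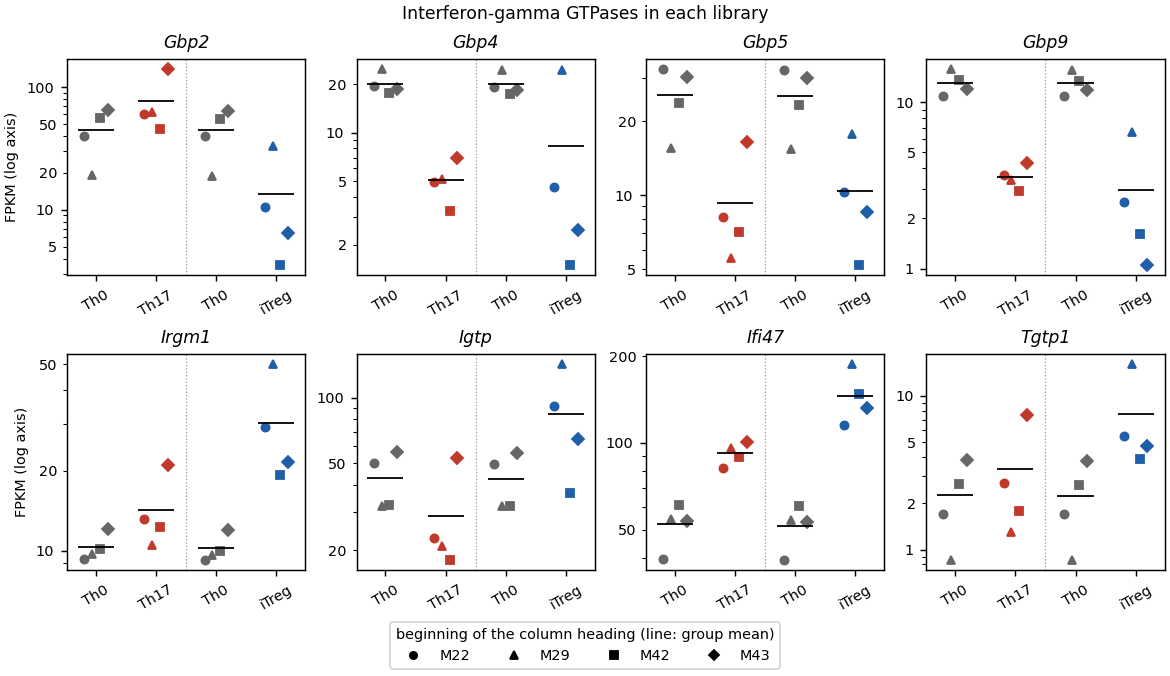
FPKM on a log axis of 4 GBP genes (top) and 4 IRG genes (bottom) in each library, with Th0 and Th17 values from one table on the left of each panel and Th0 and iTreg values from the other on the right. Symbols mark the beginning of the column heading and lines the group means. The triangle M29_4 stands highest of the iTreg libraries in all 8 panels, and the diamond M43_5 highest of the Th17 libraries.

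The IRG genes that were called rose in iTreg cells, and in Th17 cells the few main calls went both ways. In iTreg cells 2 of 7 rose and 0 fell, the groups did not overlap for 4 of 7, and the median log2 fold change of the 7 genes was 1.07. Of all genes tested in the iTreg comparison, 8.36% rose, and 11.7% lay higher without overlap. In Th17 cells 1 rose and 1 fell, 5 of 7 were DE with the paired value (3 up and 2 down), and the median was 0.29. Of all genes tested in the Th17 comparison, 10.6% rose and 8.69% fell. The 1 of 7 called each way was near these shares. With the paired value 37.8% of all genes were DE (19.2% up and 18.6% down). The IRG genes other than Iigp1 lie on chromosome 11, with Igtp at chr11:58199556-58207591 and Irgm2 at chr11:58199618-58222782 in overlapping spans and Irgm1, Tgtp1, Tgtp2 and Ifi47 some way off (Ifi47 at chr11:49076587-49096974).

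Ifi47, which encodes the GTPase IRG-47, rose in both. It was at 39.7, 54.4, 61.1 and 53.7 FPKM in Th0, 81.7, 95.9, 89.1 and 101 FPKM in Th17 and, in the other table, 116, 188, 147 and 132 FPKM in iTreg libraries. All treated libraries lay above all Th0 libraries, with a log2 fold change of 0.82 ± 0.15 (SE), adjusted p = 0.0048 in Th17 cells and 1.47 ± 0.18 (SE), adjusted p = 0.00091 in iTreg cells. Both calls held with each library left out, and in iTreg cells the value without M29_4 was 1.34. Irgm1, a regulatory IRG that also acts in autophagy, was at 9.24, 9.69, 10.02 and 12 FPKM in Th0 and 29.2, 50.3, 19.3 and 21.5 FPKM in iTreg libraries. These did not overlap (log2 fold change 1.37 ± 0.27 (SE), adjusted p = 0.0093, and 1.10 without M29_4). In Th17 libraries Irgm1 was at 13.2, 10.5, 12.3 and 21 FPKM, with M29_5 inside the Th0 range and the others above it, and was DE only with the paired value (adjusted p = 0.042, main log2 fold change 0.39 ± 0.19 (SE), adjusted p = 0.21).

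Tgtp1 and Tgtp2, 2 copies that encode a GTPase first found in T cells, were at 5.51, 16.1, 3.87 and 4.73 FPKM and 4.91, 10.5, 3.47 and 4.29 FPKM in iTreg libraries. Th0 libraries held 1.69, 0.854, 2.62 and 3.77 FPKM of Tgtp1 and 2.16, 0.628, 2.69 and 3.34 FPKM of Tgtp2. All iTreg values lay above all Th0 values, but the spread was wide and neither gene was DE in the main test (log2 fold change 1.29 ± 0.42 (SE), adjusted p = 0.073 for Tgtp1 and 1.07 ± 0.37 (SE), adjusted p = 0.083 for Tgtp2) or the paired one (adjusted p = 0.061 and 0.077). In Th17 libraries Tgtp2 was at 3.92, 3.21, 2.88 and 8.4 FPKM against 2.18, 0.633, 2.73 and 3.38 FPKM in Th0. M29_5 and M42_5 lay inside the Th0 range and M22_5 and M43_5 above it, and Tgtp2 was DE only with the paired value (adjusted p = 0.025, main log2 fold change 0.79 ± 0.36 (SE), adjusted p = 0.17). The copies share 73.1% and 76.8% of their 100-base stretches with other genes, mostly each other and Gm12185, so neither level can be assigned to one copy with certainty.

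Of the remaining pair, Irgm2 fell in Th17 cells and Igtp, also known as Irgm3, passed only the paired test. Their shared bases are 8.01% of the exonic bases of Igtp and 4.39% of those of Irgm2. Igtp was at 50.5, 32, 32.3 and 56.6 FPKM in Th0 and 22.8, 20.9, 18 and 53.1 FPKM in Th17 libraries. It was lower in each Th17 library than in the Th0 library with the same heading beginning, and was DE with the paired value (adjusted p = 0.021) and without M43_5 (-0.99, adjusted p = 0.025), but not in the main test (log2 fold change -0.65 ± 0.34 (SE), adjusted p = 0.22). Irgm2 was at 6.27, 5.83, 6.92 and 8.14 FPKM in Th0 and 3.7, 4.49, 4.28 and 5.78 FPKM in Th17 libraries. The groups came within a narrow margin without overlapping (log2 fold change -0.49 ± 0.14 (SE), adjusted p = 0.043, paired adjusted p = 0.0063). The main call was kept only without M29_1 or without M43_5 (adjusted p 0.023 to 0.12). In iTreg cells Igtp was at 91.4, 144, 36.5 and 64.5 FPKM, overlapping Th0, and was DE only without M42_4 (1.19, adjusted p = 0.043, main log2 fold change 0.85 ± 0.39 (SE), adjusted p = 0.18). Irgm2 was not DE in iTreg cells (0.24, adjusted p = 0.68). Iigp1, an effector IRG that coats the vacuoles of parasites, was at 1.1 to 6.33 FPKM in Th0 and 0.798 to 1.92 FPKM in Th17 libraries and up to 15.1 FPKM in M29_4, and was not DE (adjusted p = 0.22 and 0.51). The study, with its own pair-wise edgeR test, named Iigp1 among genes lower in Th17 cells in both RNA and protein. With the pairing used here its adjusted p in Th17 cells was 0.10.

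Tap1, which carries peptides to MHC class I molecules, was at 57.5, 50.2, 29.6 and 67.5 FPKM in Th0 and 53.8, 52.6, 26.2 and 67.6 FPKM in Th17 libraries. M42_1 and M42_5 were the lowest of their groups, and the log2 fold change was -0.05 ± 0.33 (SE), adjusted p = 0.94. In iTreg libraries it was at 65.2, 83.2, 26.1 and 61.3 FPKM and not DE either (log2 fold change 0.16 ± 0.37 (SE), adjusted p = 0.82).

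RefSeq promoter windows of 300 bases, from 250 before the start site to 50 from it on (GRCm38.p6), were found for 29 of the 40 genes, which gave 35 windows among 32851. Those of Gbp4, Gbp6, Gbp9, Iigp1, Mx1, Usp18, Zbp1, Parp9, Parp14, Rtp4 and Dhx58 were not in the table. The windows were searched for the letters GAAANNGAAA on either strand as an ISRE core and TTCNNNGAA, which reads the same on both strands, as a GAS. Matches of both can overlap, as they do in the Bst2 window. An ISRE core was in 17 of the 35 windows (48.6%), against 3.44% of all 32851, and a GAS in 13 (37.1%), against 8.30%. By role, an ISRE core was found for 4 of 4 GBP genes, 5 of 6 IRG genes, 2 of 2 sensor genes, 6 of 13 effector genes and 0 of 3 transcription factor genes with a window. A match describes letters and not a site that a factor was seen to bind.

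Igtp, Irgm2, Tgtp1 and Tgtp2, which belong to one family, carried both motifs at one spacing, with the first base of the ISRE core 11 bases after the first base of the GAS. This arrangement, noticed after the windows had been seen, was found in 5 of all 32851 windows, which were these 4 and Gm12185. The windows are shown for this shared layout. Positions count from the start site as 0, and capitals mark the GAS and the ISRE core. They begin at -45 and -34 in Igtp (chr11:58199306-58199605, plus strand), at -75 and -64 in Irgm2 (chr11:58214727-58215026, plus strand), at -88 and -77 in Tgtp1 (chr11:48992197-48992496, minus strand), and at -81 and -70 in Tgtp2 (chr11:49064163-49064462, minus strand).
Igtp: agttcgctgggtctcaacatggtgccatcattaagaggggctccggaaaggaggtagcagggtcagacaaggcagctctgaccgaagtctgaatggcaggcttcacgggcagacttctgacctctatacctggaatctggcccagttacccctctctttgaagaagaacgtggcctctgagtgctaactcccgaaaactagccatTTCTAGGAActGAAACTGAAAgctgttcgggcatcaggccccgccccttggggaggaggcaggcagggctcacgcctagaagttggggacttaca
Irgm2: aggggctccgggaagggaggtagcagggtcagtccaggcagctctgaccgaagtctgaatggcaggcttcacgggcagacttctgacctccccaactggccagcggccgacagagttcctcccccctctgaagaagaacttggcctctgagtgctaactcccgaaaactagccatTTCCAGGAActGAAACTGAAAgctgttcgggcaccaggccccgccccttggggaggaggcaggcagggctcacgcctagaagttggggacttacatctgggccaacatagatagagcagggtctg
Tgtp1: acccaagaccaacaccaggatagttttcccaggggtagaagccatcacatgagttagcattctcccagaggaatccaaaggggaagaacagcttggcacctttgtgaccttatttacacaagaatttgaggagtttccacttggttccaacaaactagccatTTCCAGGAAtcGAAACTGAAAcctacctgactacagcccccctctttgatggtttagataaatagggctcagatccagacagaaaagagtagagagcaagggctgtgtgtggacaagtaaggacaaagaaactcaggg
Tgtp2: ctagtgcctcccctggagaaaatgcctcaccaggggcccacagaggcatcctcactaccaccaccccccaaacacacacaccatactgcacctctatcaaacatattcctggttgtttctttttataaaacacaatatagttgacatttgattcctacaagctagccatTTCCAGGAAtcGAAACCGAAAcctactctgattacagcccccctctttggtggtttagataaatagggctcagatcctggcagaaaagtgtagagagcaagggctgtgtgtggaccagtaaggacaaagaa

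Windows of other genes were laid out otherwise. Gbp7 (chr3:142530086-142530385, plus strand), lower in both treated groups, held GAS letters at -106 and -87 and an ISRE core at -53. Ifih1 (chr2:62646206-62646505, minus strand), the gene with the deepest fall in Th17 cells, held an ISRE core at 32, past the start site, and no GAS. Irgm1 (chr11:48871371-48871670, minus strand), up-regulated in iTreg cells, held 2 overlapping ISRE cores at -30 and -24. Ifi47, up-regulated in both, held neither set of letters in its window and is not shown.
Gbp7: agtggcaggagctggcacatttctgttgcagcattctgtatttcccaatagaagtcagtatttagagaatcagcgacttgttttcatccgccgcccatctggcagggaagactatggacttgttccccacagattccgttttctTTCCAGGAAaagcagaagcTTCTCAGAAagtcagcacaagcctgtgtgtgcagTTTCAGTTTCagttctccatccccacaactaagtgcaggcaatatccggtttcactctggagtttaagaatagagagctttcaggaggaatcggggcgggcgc
Ifih1: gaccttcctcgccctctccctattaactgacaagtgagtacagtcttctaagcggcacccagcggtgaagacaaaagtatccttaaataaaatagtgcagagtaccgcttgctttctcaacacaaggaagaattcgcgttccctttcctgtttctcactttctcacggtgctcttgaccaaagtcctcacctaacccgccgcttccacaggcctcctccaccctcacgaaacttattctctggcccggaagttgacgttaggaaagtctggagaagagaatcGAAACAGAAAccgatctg
Irgm1: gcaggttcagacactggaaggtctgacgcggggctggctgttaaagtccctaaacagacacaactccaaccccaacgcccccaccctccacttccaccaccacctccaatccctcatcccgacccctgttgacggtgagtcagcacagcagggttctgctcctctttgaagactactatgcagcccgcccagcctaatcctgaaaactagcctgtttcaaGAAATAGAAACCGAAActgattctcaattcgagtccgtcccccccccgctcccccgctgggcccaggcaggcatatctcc

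**Figure D4:**
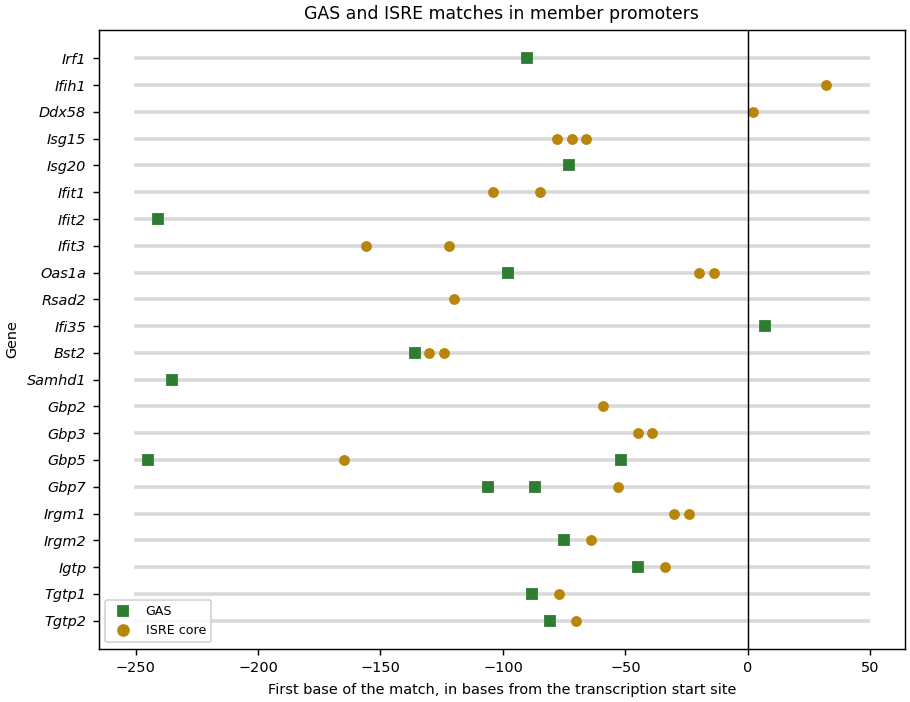
Grey lines are the RefSeq promoter windows of the interferon genes that hold a match, squares GAS matches and circles ISRE cores, placed by the first base of the match in bases from the start site. In Igtp, Irgm2, Tgtp1 and Tgtp2 a square and a circle stand 11 bases apart.

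The rest of the interferon pathway was read from a list of 31 genes, of which 29 were tested in the Th17 and 28 in the iTreg comparison. In Th17 cells 5 rose and 5 fell, and in iTreg cells 4 rose and 4 fell, shares to be read beside the 19.3% and 16.6% of all genes. Stat2, which carries type I signals, rose in Th17 cells (0.88 ± 0.23 (SE), adjusted p = 0.03), and in iTreg cells its value was 0.28 (adjusted p = 0.56, paired 0.027). The Th17 call of Stat2 was kept only without M22_1, M29_1 or M42_5 (adjusted p 0.017 to 0.085 over the 8 fits), and its paired adjusted p with all libraries was 0.0022.

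Some receptors and inhibitors of signalling were called as well. Of 4 tested receptor genes, 2 were DE in Th17 and 1 in iTreg cells. Of 3 negative regulators, 2 were DE in each comparison, beside 19.3% and 16.6% of all genes. Ifngr2, the signalling chain of the IFNγ receptor, rose from 10.1 to 15 FPKM in Th0 libraries to 22.5 to 33.6 FPKM in Th17 and 24 to 34.9 FPKM in iTreg libraries (log2 fold change 1.13 ± 0.16 (SE), adjusted p = 0.0015 and 1.17 ± 0.16 (SE), adjusted p = 0.0015). Ifnar1, a chain of the type I receptor, fell in Th17 cells (-0.72 ± 0.17 (SE), adjusted p = 0.016, paired adjusted p = 0.0013). The main call was lost without M22_1 or without M43_1 (adjusted p = 0.0504 and 0.0503). Ifngr1 and Ifnar2 were not DE in either comparison, nor was the negative regulator Ptpn2 (adjusted p = 0.86 in Th17 and 0.36 in iTreg). Socs1, which blocks Jak kinases after interferon, was at 17 to 29.6 FPKM in Th0 and 62.2 to 103 FPKM in Th17 libraries and at 52.5 to 73 FPKM in iTreg (log2 fold change 1.72 ± 0.21 (SE), adjusted p = 0.0006 and 1.29 ± 0.18 (SE), adjusted p = 0.0019). Socs3, induced by IL6 through Stat3, was at 2.54 to 3.32 FPKM in Th0 and 52.5 to 131 FPKM in Th17 libraries and 5.75 to 7.96 FPKM in iTreg (log2 fold change 4.12 ± 0.28 (SE), adjusted p = 3.4e-05 and 1.07 ± 0.12 (SE), adjusted p = 0.00063). Ifng itself was not listed in the Th17 table, and in the iTreg table it was at 0.874, 0.523, 0.796 and 2.28 FPKM in Th0 and 0.835, 2.6, 0.368 and 0.833 FPKM in iTreg libraries. M29_4 held the highest of these values.

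Irf8, a partner of other IRF factors at ISRE-like sites, had the largest difference of the pathway list in iTreg cells. It was at 5.09, 1.74, 11 and 13 FPKM in Th0 and 158, 115, 234 and 205 FPKM in iTreg libraries. The groups were far apart (log2 fold change 4.57 ± 0.49 (SE), adjusted p = 0.00045), whereas in Th17 libraries, at 2.9 to 19.96 FPKM, Irf8 was not DE (0.05, adjusted p = 0.97). Irf2, a repressor that competes with Irf1, fell in iTreg cells (-0.68 ± 0.17 (SE), adjusted p = 0.028, paired adjusted p = 0.00066). The main call was kept only without M29_4, M42_1 or M43_1 (adjusted p 0.018 to 0.077). Of 7 Th1 genes, 3 of 6 tested were DE in Th17 and 2 of 5 in iTreg cells, beside 19.3% and 16.6% of all genes. Stat4, which carries IL12 signals, fell from 15 to 23.9 FPKM in Th0 to 2.51 to 3.69 FPKM in Th17 and 3.01 to 4.86 FPKM in iTreg libraries (log2 fold change -2.29 ± 0.16 (SE), adjusted p = 4.3e-05 and -2.01 ± 0.17 (SE), adjusted p = 0.00014). Tbx21 was not DE in Th17 cells (0.55, adjusted p = 0.22) and was too low to test in iTreg cells. Il12rb2 was not DE in either comparison (adjusted p = 0.29 and 0.85). The chemokine gene Ccl5 fell in both (-1.51 and -1.06), and the chemokine receptor gene Cxcr3 rose in Th17 cells (1.64 ± 0.44 (SE), adjusted p = 0.031). Both were low, with Ccl5 above 1 FPKM in 4 Th0, 1 Th17 and 2 iTreg libraries. Cxcr3 was at 0.067 to 1.67 FPKM in Th0 and 2.21 to 10.8 FPKM in Th17 libraries. Their place among the tested genes thus depends on the group in which they were higher. In iTreg cells the Ccl5 call was lost without M22_4 (adjusted p = 0.055), and in Th17 cells the Cxcr3 call was lost without M22_1, M29_1, M29_5 or M42_1 (adjusted p 0.024 to 0.08 over the 8 fits). With all libraries and the pairing, the adjusted p was 0.00091 for Ccl5 in iTreg and 0.00046 for Cxcr3 in Th17 cells. Of 9 class I presentation genes, the immunoproteasome gene Psmb8 fell in both (-1.23 ± 0.15 (SE), adjusted p = 0.00056 in Th17 and -0.54 ± 0.12 (SE), adjusted p = 0.02 in iTreg) and Psmb9 in Th17 (-0.87 ± 0.16 (SE), adjusted p = 0.0054). The iTreg call of Psmb8 was lost without M22_1, M43_1 or M43_4 (adjusted p up to 0.059). B2m and H2-K1 were not DE in the main test, and both were lowest in the M42 library of each group.

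The paired values called 14 of the 29 pathway genes in Th17 cells and 13 of the 28 in iTreg cells, beside 37.8% and 40.9% of all genes. No main call of a pathway gene was lost with the pairing. In Th17 cells Jak2 (paired adjusted p = 0.038), Irf2 (0.033) and the peptide transporter subunit gene Tap2 (0.034) were lower and Il12rb1, a chain of the IL12 receptor, was higher (0.0087) with the pairing alone. In iTreg cells Ifnar1 (0.0066) and Jak2 (0.0092) were lower and Stat2, Cxcr3 (0.00082) and B2m (0.048) higher with the pairing alone. Without M29_1 the main test also called Jak2 in both (adjusted p = 0.007 and 0.0055).

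**Figure D5:**
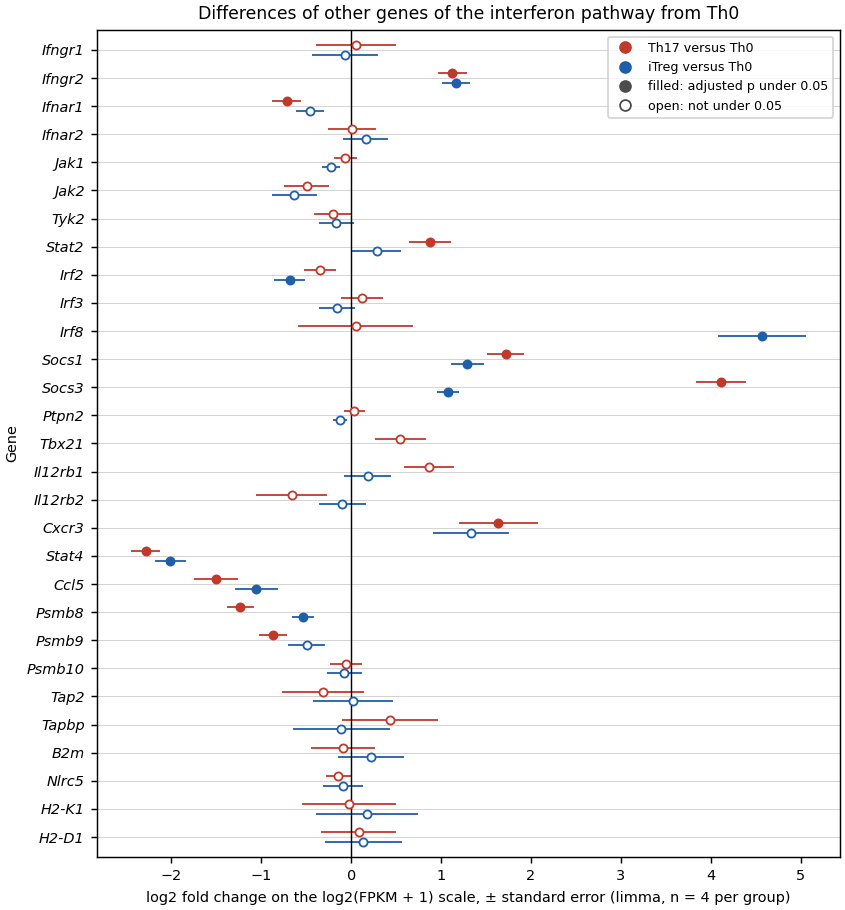
Log2 fold changes on the log2(FPKM + 1) scale of the other genes of the interferon pathway in Th17 (red) and iTreg cells (blue) against the same Th0 libraries, with standard errors from limma (n = 4 per group). Ifngr2, Socs1 and Socs3 are filled to the right of 0 in both comparisons and Stat4, Ccl5 and Psmb8 filled to the left.

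Both comparisons share their Th0 libraries, so their values are set side by side without a test between them. For the sensor gene Ifih1 the log2 fold change was -2.78 in Th17 and -1.94 in iTreg cells, and for Ifit2 it was -0.86 and -0.89. Among GBP genes it was -1.62 and -2.0 for Gbp9, -1.83 and -1.81 for Gbp4, and 0.76 and -1.95 for Gbp2, the GBP gene with the widest gap. Among IRG genes it was 0.82 and 1.47 for Ifi47, 0.39 and 1.37 for Irgm1, and -0.65 and 0.85 for Igtp. No test compared Th17 with iTreg libraries, which come from separately scaled tables.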

How the data were processed

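RNA from 4 cultures each of Th0, Th17 and iTreg cells had been sequenced in paired-end reads. The authors aligned the reads with TopHat 2.0.14 to mm10, counted exonic reads with HTSeq-count in union mode without strand, removed genes with low CPM and tested, in what their methods call a pair-wise design, groups against each other with edgeR. The sources used here do not give the gene annotation of this step. Deposited were 2 tables of FPKM values that the authors had scaled separately (Th0 libraries differed between them by constant factors of 1.009 to 1.012). The tables also hold fold changes, average expression, likelihood ratios, p-values and FDR of the authors' own comparisons, which were not used.

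Genes that exceeded 1 FPKM in 4 or more of 8 libraries entered a limma fit (version 3.58.1, R 4.3.3) of log2(FPKM + 1), with Benjamini-Hochberg adjustment over all genes tested. The fit was tested on simulated data. Tallies used Python 3.11.15, numpy 2.4.6, scipy 1.17.1 and pandas 2.3.3. Permutation tests enumerated all 70 arrangements of 4 against 4.

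Libraries were assigned to groups by their headings, which carry no experiment number, although the labels name a library of each group per experiment. Deviations of libraries with the same heading beginning correlated at 0.450 to 0.784 between Th0 and Th17 and at 0.662 to 0.769 between Th0 and iTreg, and those with different beginnings at -0.590 to 0.434 and at -0.576 to 0.248. A paired fit, with a replicate block on the beginnings, was therefore given where it changed a call of an interferon or pathway gene. FPKM steps gave whole reads for 98.0% and 97.8% of listed genes. The reads given are the smallest whole solution and may miss a common factor, and counting error is the only error they show. The members and gene lists were chosen with earlier results of these data known, and a gene of the pathway list is not reported here. Every member was accounted for, with the values of every library for each one called by either fit, without overlap between groups, or highest in its role. Coordinates are from GENCODE M21 and promoters from RefSeq, both GRCm38.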

Additional observations from a re-analysis of the deposited data

Results flagged for a closer look

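In groups of 4, a library was marked when its gap to the nearest other library took up an unusually large part of the range of its group by Dixon's ratio. Of 101 groups of interferon genes 6 were marked, where chance marks about 1 in 20. Gbp4 in iTreg cells had M29_4 at 24.4 FPKM with the next library at 4.58 FPKM, and Tgtp1 had M29_4 at 16.1 FPKM with the next at 5.51 FPKM. Igtp in Th17 cells had M43_5 at 53.1 FPKM with the next at 22.8 FPKM, and Irf9 had M42_5 lowest at 17.2 FPKM with the next at 25.4 FPKM. In Th0 cells of the Th17 table, M29_1 was highest for Irf1, at 21.1 FPKM with the next at 16.3 FPKM, and lowest for Gbp7, at 3.40 FPKM with the next at 4.42 FPKM.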

How the results depend on the processing

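Counts of DE genes moved with the threshold and with the pairing. At an adjusted p under 0.01, 995 genes in all and 9 interferon genes were DE in Th17 cells, and 778 and 5 in iTreg cells. With the replicate block the counts were 3882 and 21 in Th17 cells and 4170 and 15 in iTreg cells. The block lost no call among the interferon genes. It could not turn a direction, because with a library of each group per heading beginning its fold change equals the main one. Leaving out one library at a time gave 1364 to 2237 genes in all and 11 to 14 interferon genes in Th17 cells, and 1140 to 1521 and 6 to 11 in iTreg cells. The lowest interferon count in iTreg cells, 6, came without M22_1, M22_4, M42_1 or M43_1.

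Only interferon genes that were not DE changed direction. With a pseudocount of 0.1 the Isg15 value in Th17 cells was 0.032, and with libraries centred on their medians the Parp9 value in iTreg cells was -0.0086. Leaving out one library moved the log2 fold change in Th17 cells between -0.0016 and 0.51 for Ddx58, -0.22 and 0.21 for Isg15, -0.19 and 0.0088 for Ifi35, -0.42 and 0.045 for Gbp3, -0.096 and 0.53 for Tgtp1, and -0.29 and 0.23 for Tap1. In iTreg cells it moved between -0.44 and 0.50 for Irf1, -0.38 and 0.13 for Ifit1, -0.094 and 0.10 for Parp9, -0.15 and 0.27 for Parp14, -0.37 and 0.033 for Samhd1, -0.096 and 0.50 for Irgm2, and -0.076 and 0.51 for Tap1. The cause was not tested. No filter on low values changed no call, limma-trend lost the Irf7 call in Th17 cells (adjusted p = 0.053), a pseudocount of 0.1 lost the Zbp1 call in iTreg cells (adjusted p = 0.056), and centring added Gbp3 in iTreg cells (adjusted p = 0.041). Depth limits Isg15, Irf7, Ifit1, Ifit3, Isg20, Usp18 and, in Th17 cells, Ifih1, since some of their libraries held fewer than 10 reads.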
